A study of Mus musculus with 12 samples.

Results

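Heme is built from glycine and succinyl-CoA by a short chain of enzymes and is broken down again through biliverdin. The genes described here are 9 of the 43279 in the deposited table of normalised read counts: Alas1, Alas2, Alad, Uros, Urod, Cpox, Ppox and Fech of heme synthesis, and Blvrb, which encodes biliverdin reductase B. They do not cover every step of the chain. They were taken by symbol and chosen by their normalised counts in these libraries, with the difference between the genotypes already known, so that difference is given for them as a description and carries no weight as a test. Of the 9, 8 passed the filter on low values and Alas2 did not.

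The libraries compare naive Osmr-/- mice with naive WT mice of the C57BL/6 strain. Osmr encodes the chain of the oncostatin M receptor that pairs with gp130. Each library came from 1 mouse and from 1000 marrow cells of femur, tibia and ilium, sorted for KIT and SCA1 and against lineage markers, FLT3 and CD48, which leaves hematopoietic stem cells along with some multipotent progenitors. There were 5 Osmr-/- libraries (numbers 1, 2, 3, 5 and 6) and 6 WT libraries (numbers 1 to 6). The labels call the mutant Osmr-/- with no cell type named for the deletion, the sort removed cells carrying the red-cell marker TER119 with the other lineage markers, and ages and sexes were not used here.

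Heme synthesis starts in mitochondria, where an aminolevulinate synthase makes 5-aminolevulinate, passes through the cytosol, where the porphyrin ring is assembled and trimmed, and ends in mitochondria, where ferrochelatase inserts iron. All nucleated cells make some heme for cytochromes and other enzymes, and erythroid precursors make far more of it for hemoglobin, with their own X-linked first enzyme, ALAS2. Heme oxygenases open the ring to biliverdin, and biliverdin reductases turn that into bilirubin, with BLVRB also acting as a flavin reductase that is abundant in red cells.

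Promoter windows of 300 bases, from 250 before to 50 after a transcript start, were read from RefSeq on GRCm38.p6 for 8 of the 9 genes, in 12 windows because some genes have more than 1 start. They were searched on both strands for the GATA letters, spelt AGATAA or with a final G as AGATAG, and the same pair starting with T as TGATAA or with a final G as TGATAG, which erythroid GATA1 can bind, for CACCC, the core of sites for the erythroid factor KLF1, for TGANNNNGC, the core bound by CNC-MAF pairs such as those of the heme sensor BACH1, and for the E-box CANNTG. Below, GATA and CACCC matches on either strand are in capitals. Alad and Blvrb are shown because their counts did not overlap between the genotypes, and Alas2 as the erythroid enzyme. Of the windows read, that of Cpox is shown as the one with the most GATA and CACCC matches. Where a gene has more than 1 window, the one whose start lies nearest to the 5′ end of the gene in GENCODE M21 is shown.
Alad, chr4:62519860-62520159, minus strand: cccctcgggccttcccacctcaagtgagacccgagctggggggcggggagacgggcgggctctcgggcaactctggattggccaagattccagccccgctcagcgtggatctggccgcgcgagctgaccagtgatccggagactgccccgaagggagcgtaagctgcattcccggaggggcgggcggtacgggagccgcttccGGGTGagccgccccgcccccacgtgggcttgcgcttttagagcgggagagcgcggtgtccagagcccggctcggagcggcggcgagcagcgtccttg
Blvrb, chr7:27447728-27448027, plus strand: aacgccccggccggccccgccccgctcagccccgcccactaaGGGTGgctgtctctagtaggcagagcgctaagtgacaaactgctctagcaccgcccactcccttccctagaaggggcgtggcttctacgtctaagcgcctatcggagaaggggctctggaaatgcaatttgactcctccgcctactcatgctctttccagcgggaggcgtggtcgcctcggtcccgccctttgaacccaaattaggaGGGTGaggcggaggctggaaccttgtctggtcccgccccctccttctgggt
Alas2, chrX:150547167-150547466, plus strand: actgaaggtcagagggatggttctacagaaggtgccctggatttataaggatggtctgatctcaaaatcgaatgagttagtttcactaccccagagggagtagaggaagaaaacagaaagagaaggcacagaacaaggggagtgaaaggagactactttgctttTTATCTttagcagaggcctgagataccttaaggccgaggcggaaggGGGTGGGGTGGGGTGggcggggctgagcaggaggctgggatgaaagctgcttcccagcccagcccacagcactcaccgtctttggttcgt
Cpox, chr16:58669958-58670257, plus strand: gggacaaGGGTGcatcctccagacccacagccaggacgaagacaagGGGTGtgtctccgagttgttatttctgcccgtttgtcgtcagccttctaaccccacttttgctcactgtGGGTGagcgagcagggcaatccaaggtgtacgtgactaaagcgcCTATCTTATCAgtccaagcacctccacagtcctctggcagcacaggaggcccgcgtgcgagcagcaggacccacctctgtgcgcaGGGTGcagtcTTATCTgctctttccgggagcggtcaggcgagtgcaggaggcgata
In these windows, Alad had 0 GATA matches and 1 CACCC match, Blvrb had 0 and 2, Alas2 had 1 and 3, and Cpox had 3 and 4, where 2 of the GATA matches of Cpox overlap each other. The windows not shown for Alad and Blvrb had 0 GATA and 0 CACCC matches for Alad, and 1 and 1 for Blvrb. Over the 12 windows, 4 held GATA letters, 8 CACCC, 5 TGANNNNGC and 7 CANNTG. The shares over all 32851 windows of the same length were 29.8% for GATA, 57.5% for CACCC, 41.3% for TGANNNNGC and 72.3% for CANNTG. These matches describe letters only.

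The libraries held totals of 9.50 to 11.2 M in Osmr-/- and 9.89 to 22.1 M in WT, where M is the prefix mega and the unit is reads counted in genes. A floor of 3 reads corresponds to 1.56 to 3.87 normalised counts, and counting intervals and floors cover counting error only. Osmr itself could not check the labels, with 0 to 2 reads in each Osmr-/- library and 0, 0, 0, 1, 4 and 8 reads in the WT libraries, of which only 2 stood above that floor. Genes of the sort gate, Kit, Ly6a (SCA1), Cd48 and Flt3 among them, were detected in every library, with summed counts over 10 such genes of 23469 to 31661 in Osmr-/- and 21377 to 28715 in WT. RNA of the markers sorted out was present, at 853 ± 355 normalised counts of Cd48 in Osmr-/- and 637 ± 429 in WT, and at 389 ± 148 of Flt3 in Osmr-/- and 504 ± 164 in WT (SD, n = 5 and 6). Osmr-/- library 3 had the fewest reads and a summed granulocyte marker count of 29658, against 4926 to 6393 in the other Osmr-/- libraries and 3720 to 5598 in WT. On the summed count of the 9 genes, WT libraries 1 to 3, at 6898 to 7783, stood apart from WT libraries 4 to 6, at 3725 to 5420. The Osmr-/- libraries did not split this way, at 2313, 3051 and 1059 in libraries 1 to 3 and 2761 and 1835 in libraries 5 and 6. The labels name no batch that would match these number sets.

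Across the chain, the first and the cytosolic enzymes and Blvrb averaged lower counts in Osmr-/- than in WT libraries, and the last enzymes lay closer to WT. On the log2 scale of normalised count + 1, the fold change of Osmr-/- over WT was -2.43 for Alas1, ran from -2.51 to -1.33 over the cytosolic Alad, Uros and Urod, from -0.86 to -0.14 over the mitochondrial Cpox, Ppox and Fech, and was -1.81 for Blvrb. All 8 genes tested lay below 0, where 53.2% of the 13358 genes tested did, and 5 of the 8 were at -1 or less, where 13.6% of all genes were. The median was -1.40 for the 8 genes and -0.05 for all genes tested. With Benjamini-Hochberg adjustment over all genes, limma called 0 of the 8 lower and 0 higher at 0.05, beside 0.0150% of all genes called lower, and 6 of the 8 were lower at an unadjusted p under 0.05, beside 10.5% of all genes. The count was 0 with edgeR, where 0.00749% of genes were called lower. It was 3 with DESeq2 on the recovered reads, where 4.09% were. That DESeq2 share is over 8431 genes, fewer than the 13358 of limma and edgeR. Leaving out 1 library changed the limma count to 1 without Osmr-/- library 5 and to 2 without WT library 6, fits in which 9 and 92 of all 13358 genes were called lower, against 2 with every library in. Since the contrast was in view when the genes were picked, nothing is read from these counts. In bulk RNA such as this, fewer cells of a type and less RNA per cell cannot be told apart.

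**Figure D1:**
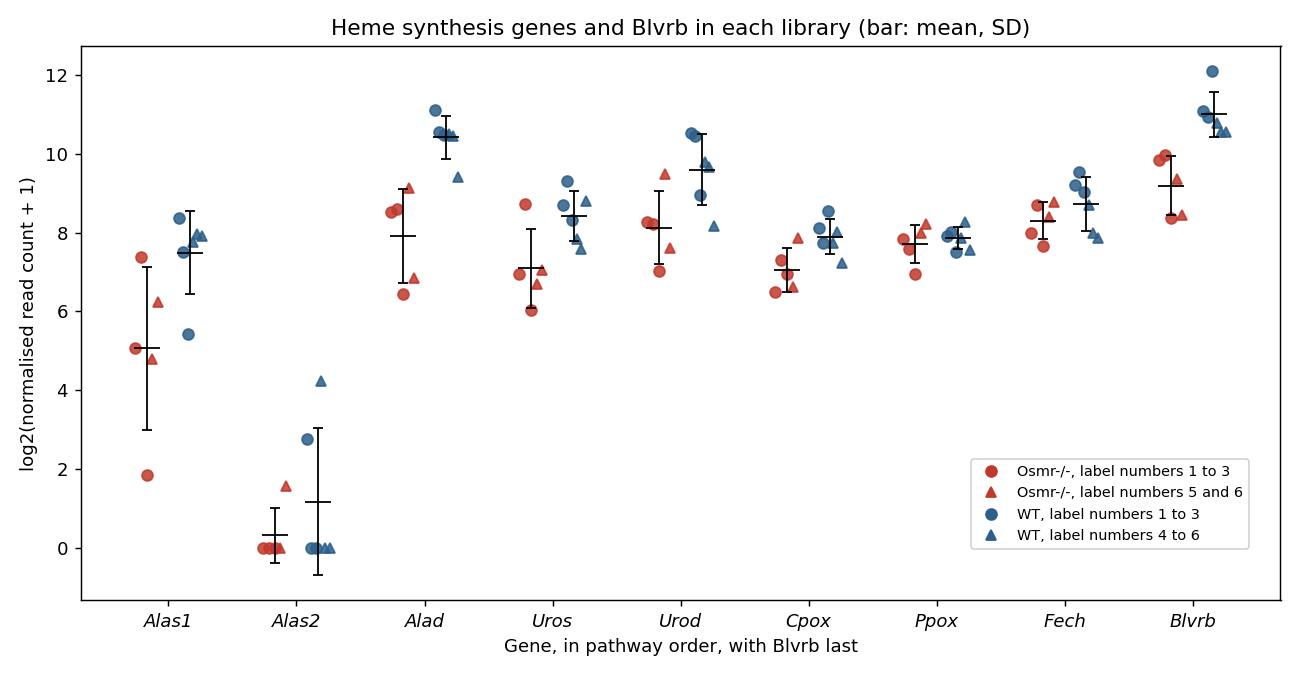
Each point is the log2 of normalised read count + 1 of 1 gene in 1 library, Osmr-/- left and WT right for each gene, with circles for libraries numbered 1 to 3 and triangles for those numbered 4 to 6. Bars give the mean and SD on this scale (n = 5 Osmr-/- and n = 6 WT). The Osmr-/- and WT points stay apart for Alad and Blvrb and mix for Ppox and Fech. For Alas2 most points lie at 0, with WT libraries 1 and 4 at 2.75 and 4.24 and Osmr-/- library 6 at 1.56.

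Alas1 encodes the aminolevulinate synthase of most tissues, the rate-limiting entry to the chain. It had 32.8, 164, 2.58, 26.8 and 74.2 normalised counts in Osmr-/- libraries 1, 2, 3, 5 and 6, against 42.3 to 330.6 with a median of 228 in WT. Osmr-/- libraries 2 and 6 lay above WT library 3 and below the other WT libraries, and the other 3 Osmr-/- libraries lay below all WT libraries. The means were 60.1 ± 63.7 in Osmr-/- and 210.0 ± 96.2 in WT (SD, n = 5 and 6), with a log2 fold change of -2.43 (SE 0.82, 95% interval -4.18 to -0.68). The 2.58 of Osmr-/- library 3 rests on 2 reads, under the floor, and without that library the log2 fold change was -1.62. Alas1 had the widest spread of the 8 genes in Osmr-/-, with an SD of 106% of the mean, and an SD of 45.8% in WT, where Urod had the widest at 53.1%.

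Alas2, the X-linked synthase of erythroid precursors, was nearly undetected. Osmr-/- libraries 1, 2, 3 and 5 had 0 reads and library 6 had 2 reads, or 1.95 normalised counts, while WT libraries 1 and 4 had 11 and 23 reads, or 5.72 and 17.9 normalised counts, and the other 4 WT libraries had 0. The 2 reads in Osmr-/- and 34 in WT give a depth-adjusted ratio of Osmr-/- over WT of 0.0961, with an exact 95% counting interval of 0.0112 to 0.375 that holds no spread between mice. Both genotypes had libraries at 0 and overlapped, and Alas2 was not tested in the main fit. The limma fit without a filter called 0 of the 9 genes, Alas2 included. The authors' deposited table, with the sign turned to Osmr-/- over WT, has Alas2 at -0.22 (SE 0.28, Wald p 0.429). Of its annotated exon bases, 12.9% overlap Apex2 on the opposite strand.

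Alad encodes delta-aminolevulinate dehydratase, a zinc enzyme of the cytosol that joins aminolevulinate into porphobilinogen. It had 370.4, 389, 86.4, 559 and 114 normalised counts in Osmr-/- libraries 1, 2, 3, 5 and 6, against 682 to 2214 with a median of 1442 in WT. Every Osmr-/- library lay below every WT library. The means were 304 ± 200.05 in Osmr-/- and 1451 ± 486 in WT (SD, n = 5 and 6), a log2 fold change of -2.51 (SE 0.46, 95% interval -3.48 to -1.54, limma adjusted p 0.0640). On this scale Alad was 5.70-fold lower in Osmr-/-, close to the 5.39-fold of Alas1, and which of the pair came first changed with the libraries used. Osmr-/- libraries 3 and 6 were well under the other Osmr-/- libraries, and WT library 6 was well under the other WT libraries, so a spread within genotypes stood beside the gap between them.

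Uros encodes uroporphyrinogen III synthase, which closes the ring in the right isomer. Its counts were 123, 426, 64.4, 102 and 133 in Osmr-/- libraries 1, 2, 3, 5 and 6, against 189.7 to 633 with a median of 367 in WT. Osmr-/- library 2 lay among the WT libraries, and the other 4 Osmr-/- libraries lay below all WT libraries. The log2 fold change was -1.33 (SE 0.46, 95% interval -2.30 to -0.35), from means of 169.6 ± 146 in Osmr-/- and 371 ± 163 in WT (SD, n = 5 and 6).

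Urod encodes uroporphyrinogen decarboxylase, which trims the ring's side chains. Its counts were 306, 297, 129, 725 and 195 in Osmr-/- libraries 1, 2, 3, 5 and 6, against 288 to 1482 with a median of 853 in WT. WT library 6, at 288, lay below 3 of the Osmr-/- libraries, and Osmr-/- library 5 lay above WT library 3. The means were 330.3 ± 232 in Osmr-/- and 895 ± 476 in WT (SD, n = 5 and 6), with a log2 fold change of -1.47 (SE 0.47, 95% interval -2.47 to -0.48).

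Cpox encodes coproporphyrinogen oxidase, in the space between the mitochondrial membranes, and Ppox encodes protoporphyrinogen oxidase on the inner membrane. Cpox had 88.4, 157, 122, 96.8 and 232 normalised counts in Osmr-/- libraries 1, 2, 3, 5 and 6, against 148 to 377 with a median of 237 in WT. Osmr-/- libraries 2 and 6 lay within the WT range, and the other 3 lay below it. The means of Cpox were 139 ± 58.4 in Osmr-/- and 248 ± 77.6 in WT (SD, n = 5 and 6), with a log2 fold change of -0.86 (SE 0.36, 95% interval -1.62 to -0.09). Ppox had 228, 192, 124, 252 and 299.6 normalised counts in the same Osmr-/- libraries, against 181 to 309 with a median of 236 in WT. Only Osmr-/- library 3 lay outside the WT range of Ppox. Its means were 219 ± 66.1 in Osmr-/- and 235 ± 46.7 in WT (SD, n = 5 and 6), with a log2 fold change of -0.14 (SE 0.31) whose 95% interval, -0.80 to 0.53, includes differences in both directions. Without Osmr-/- library 3 the value for Ppox was 0.054. On the opposite strand, B4galt3 shares 791 exon bases with Ppox, 17.5% of its annotated exon length, and without a strand setting in the sources used here reads there cannot be told apart.

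Fech encodes ferrochelatase, the iron-sulfur enzyme that makes heme from protoporphyrin. It had 251, 419, 202, 338 and 438 normalised counts in Osmr-/- libraries 1, 2, 3, 5 and 6, against 231 to 747 with a median of 469 in WT. The WT libraries covered all Osmr-/- values but the 202 of library 3. The log2 fold change was -0.42 (SE 0.35, 95% interval -1.16 to 0.33), from means of 329.6 ± 103 in Osmr-/- and 461 ± 200.2 in WT (SD, n = 5 and 6).

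Blvrb, which acts on a product of heme rather than in making it, had 913, 1007, 329, 662 and 346 normalised counts in Osmr-/- libraries 1, 2, 3, 5 and 6, against 1503 to 4404 with a median of 1862 in WT. Every Osmr-/- library lay below every WT library, as for Alad, and no other gene of the 9 showed such a gap. Of all genes tested, 1.42% were lower in Osmr-/- without overlap. The means were 651 ± 313 in Osmr-/- and 2224 ± 1100.5 in WT (SD, n = 5 and 6), with a log2 fold change of -1.81 (SE 0.35, 95% interval -2.56 to -1.06, limma adjusted p 0.0640), 3.51-fold lower in Osmr-/-. WT library 3, at 4404, stood far above the other WT libraries, which lay between 1503 and 2196, and without it the log2 fold change of Blvrb was -1.59.

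The limma adjusted p of the other 6 genes ran from 0.145 to 0.858. In the authors' deposited table, with the sign turned to Osmr-/- over WT, Alad had a log2 fold change of -1.82 with an adjusted p of 2.9e-04. Blvrb had -1.52 with an adjusted p of 9.87e-04 in the authors' deposited table. These 2 were the genes of the 8 past 0.05 in the authors' deposited table, beside 2.79% of its genes called lower. The other 6 ran from -1.15 for Alas1 to -0.09 for Ppox in the authors' deposited table, where Alas2 has no adjusted p.

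**Figure D2:**
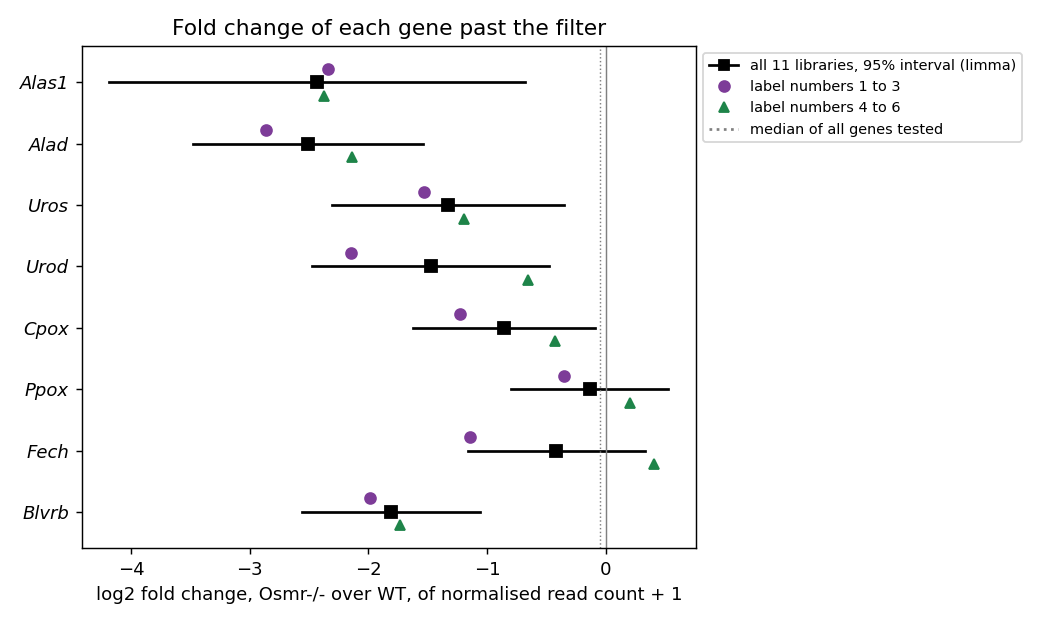
Log2 fold change of Osmr-/- over WT, of normalised read count + 1, for the 8 genes past the filter. Squares and lines give the limma estimate and 95% interval over all 11 libraries, circles and triangles the values within libraries numbered 1 to 3 and 4 to 6, and the dotted line the median of all genes tested, -0.05; Fech and Ppox lie above 0 in numbers 4 to 6 and the other 6 genes lie below 0 in both sets.

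Setting the genes beside each other inside a library takes out any scaling that a library shares over all genes. The ratio of Alad to Ppox was 0.381 to 2.22 in Osmr-/- and 3.60 to 9.20 in WT, without overlap. Alad to Fech gave 0.261 to 1.66 in Osmr-/- and 2.02 to 5.53 in WT, again without overlap. The first cytosolic enzyme thus stood lower in Osmr-/- relative to the last enzymes too, which is a statement on unequal levels and not on which of them moved. Alad already lay apart between the genotypes while Ppox and Fech differed little, so these gaps are no separate result. Alad to Alas1 gave 1.54 to 33.5 in Osmr-/- and 2.82 to 34.1 in WT, which overlap. Blvrb relative to Blvra, the gene of the other biliverdin reductase, was 0.271 to 0.880 in Osmr-/- and 0.784 to 2.29 in WT, which overlap. Over all 9 genes the summed counts were 1059 to 3051 in Osmr-/- and 3725 to 7783 in WT, and without Alad and Blvrb they were 644 to 1654 in Osmr-/- and 1541 to 3426 in WT, so the genotypes overlapped once those were left out.

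Per kilobase of annotated exon, Blvrb and Alad were the most abundant of the genes in both genotypes, followed by Urod. Mean normalised counts per kb were 234 ± 113 in Osmr-/- and 799 ± 396 in WT for Blvrb, 162 ± 107 in Osmr-/- and 775 ± 260 in WT for Alad, and 127 ± 89.7 in Osmr-/- and 345 ± 184 in WT for Urod (SD, n = 5 and 6). Uros and Ppox came next, at 47.4 and 48.5 per kb in Osmr-/- and at 104 and 52.0 in WT. Cpox, Fech and Alas1 had levels of 20.9, 23.8 and 9.74 per kb in Osmr-/-, against 37.2, 33.3 and 34.0 in WT. Alas2 was last, at 0.162 per kb in Osmr-/- and 1.63 in WT. In Osmr-/- the only neighbours in this order whose means lay farther apart than the SD of both genes were Cpox and Alas1. In WT such gaps stood between Alad and Urod, Urod and Uros, Uros and Ppox, Ppox and Cpox, and Fech and Alas2, while Blvrb and Alad, Cpox and Alas1, and Alas1 and Fech lay within their spread.

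The libraries numbered 1 to 3 and 4 to 6 were looked at apart. Within numbers 1 to 3 (3 Osmr-/- and 3 WT) the log2 fold changes were -2.34 for Alas1, -2.86 for Alad, -1.53 for Uros, -2.15 for Urod, -1.23 for Cpox, -0.35 for Ppox, -1.14 for Fech and -1.99 for Blvrb. Within numbers 4 to 6 (2 Osmr-/- and 3 WT) they were -2.37 for Alas1, -2.14 for Alad, -1.19 for Uros, -0.66 for Urod, -0.43 for Cpox, 0.21 for Ppox, 0.40 for Fech and -1.73 for Blvrb. Fech averaged 291 ± 113 in Osmr-/- and 621 ± 116 in WT within numbers 1 to 3 (SD, n = 3 each). Within numbers 4 to 6 the Osmr-/- values of Fech were 338 and 438, against a WT mean of 301 ± 101 (SD, n = 3). The difference between the sets was tested in limma as an interaction, which called 0 of the 8 genes and 0% of all genes. At an unadjusted p under 0.05 the interaction held for 9.85% of all genes, and the estimate for Fech was 1.55 (SE 0.54, adjusted p 0.381). With the number set as a covariate, limma called 2 of the 8 lower, Alad and Blvrb, where 1.53% of all genes were called lower.

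Among WT mice alone, the summed count of the 9 genes was 6898 to 7783 in libraries 1 to 3 and 3725 to 5420 in libraries 4 to 6, without overlap. Fech was 621 ± 116 in WT libraries 1 to 3 and 301 ± 101 in WT libraries 4 to 6 (SD, n = 3 each), and Blvrb was 2853 ± 1349 in the lower numbers and 1595 ± 147 in the upper. Ppox differed by less than its SD, at 226 ± 39.6 in the lower numbers and 243 ± 60.6 in the upper. Single libraries mattered as well: Osmr-/- library 3 was the lowest Osmr-/- library for 7 of the 8 genes, and WT library 6 the lowest WT library for 5 of the 8.

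Some of the genes also varied together between mice of 1 genotype. After the mean of each genotype was taken off, Pearson's r over the 11 libraries was above 0 for 25 of the 28 pairs, with a median of 0.33 and a range of -0.14 to 0.84. The closest pair was Alad and Urod, at 0.84, higher than 99.3% of all genes tested reach with Alad, and Alad and Blvrb gave 0.70, higher than 96.3%. Cpox went with Fech at 0.51 and hardly with the cytosolic enzymes. Other pairs were ordinary: Alad and Cpox, at -0.14, were higher than 38.2% of all genes tested reach with Alad. Uros and Ppox, at 0.06, were higher than 54.1% reach with Uros. The median r of each gene with all genes tested lay between -0.03 and 0.01. These correlations are descriptions over libraries that share depth and number set, and no p is given. How far single libraries carry them was not tested. The 3 genes closest to Alad were Ccdc181 (0.95), Tsfm (0.94) and Arl2 (0.94), those closest to Urod were D10Jhu81e (0.96), Arpc1b (0.95) and Uqcrc1 (0.93), and those closest to Blvrb were Ubl4 (0.97), Hmgn5 (0.93) and 1300002E11Rik (0.93).

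Most erythroid markers, like the heme genes, averaged lower in Osmr-/-. Of 28 listed markers 26 were found and 23 tested, of which 20 lay below 0 and 3 above; the median was -2.11 on the log2 scale, beside the -0.05 of all genes. Limma called 1 of them lower, the red-cell membrane gene Rhd, at 8.75 ± 17.3 in Osmr-/- and 273 ± 197 in WT (SD, n = 5 and 6, log2 fold change -6.05, adjusted p 0.0454), and 0 higher, beside 0.0150% and 0.00749% of all genes. Rhd was at 0 in 2 of 5 Osmr-/- libraries, so its fold depends on the pseudocount. Its call was lost without Osmr-/- library 2, 3 or 6 or without any of WT libraries 1 to 5, with limma adjusted p of 0.0565 to 0.157, and edgeR gave 0.0761. Kel, a blood-group protease gene, had a log2 fold change of -3.66 (adjusted p 0.0750), Klf1, the erythroid transcription factor, -4.17 (adjusted p 0.0801), and the beta globin gene Hbb-bt 2.02 (adjusted p 0.0640). Hbb-bt averaged 1162 ± 390 in Osmr-/- and 316 ± 208 in WT (SD, n = 5 and 6). The other beta globin copy, Hbb-bs, averaged 70.5 ± 46.1 in Osmr-/- and 131 ± 55.4 in WT. The copies of alpha and beta globin are near-identical, so reads may be split between them, which was not tested. With the number set as a covariate, limma called 10 of the 23 lower and 1 higher, beside 1.53% and 0.996% of all genes. The authors' deposited table has 9 of the 23 lower and 1 higher, beside 2.79% and 1.67% of its genes.

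The mean log2 level of the erythroid markers was 5.12 to 6.27 in Osmr-/- libraries and 7.22 to 8.41 in WT, without overlap. Their summed count was 14550 to 21073 in Osmr-/-, against 59542 to 62112 in WT libraries 1 to 3 and 22360 to 24352 in WT libraries 4 to 6. These sums lean on the carbonic anhydrase genes Car2 and Car1. Car2 averaged 11416 ± 2174 in Osmr-/- and 26493 ± 12704 in WT (SD, n = 5 and 6). Car1 averaged 1284 ± 924 in Osmr-/- and 8168 ± 7968 in WT. Of the 7 defining markers found, 5 to 6 were detected in Osmr-/- libraries and 6 to 7 in WT, with sums of 535 to 2723 in Osmr-/- and 2315 to 25396 in WT. Car1 had the highest mean count of these defining markers in both genotypes. Of the beta globin copies, the defining markers include Hbb-bs and leave out Hbb-bt, which was higher in Osmr-/-. Slc4a1, the band 3 gene of late red cells, was at 0 in 4 of 5 Osmr-/- and 4 of 6 WT libraries. In WT libraries 4 to 6, with the lower erythroid sums, Alad had 1442, 1411 and 682 and Blvrb 1765, 1517 and 1503 normalised counts. Alad averaged 1723 ± 427 in WT libraries 1 to 3 and 1178 ± 430 in WT libraries 4 to 6 (SD, n = 3 each). Blvrb averaged 2853 ± 1349 and 1595 ± 147 in the same sets. Uros, Urod, Cpox and Fech also averaged lower in WT libraries 4 to 6, while Alas1, Alas2 and Ppox averaged higher. The part of the erythroid markers in the differences of Alad, Blvrb and the other enzymes was not tested.

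**Figure D3:**
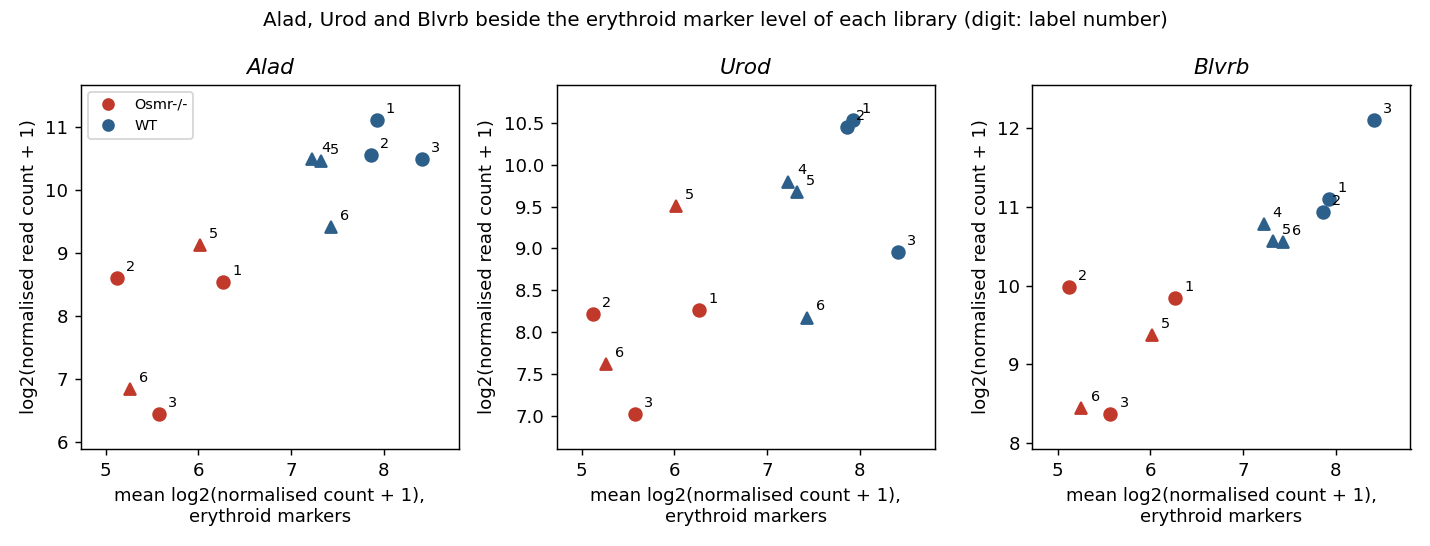
Log2 of normalised read count + 1 of Alad, Urod and Blvrb (y axes) against the mean log2 of normalised count + 1 of the tested erythroid markers (x axis) in each library, numbered as labelled, red for Osmr-/- and blue for WT. The Osmr-/- libraries lie between 5.12 and 6.27 and the WT libraries between 7.22 and 8.41 on the x axis, and Alad and Blvrb are lower in every Osmr-/- library than in any WT library.

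Apart from the erythroid markers, the sets of genes next to the pathway had medians closer to that of all genes than the heme synthesis genes did. Of 109 genes listed in 8 sets, erythroid markers included, 105 were found and 97 tested. Limma called 1 lower (Rhd) and 0 higher, with 68 of the 97 below 0. The sets and the heme synthesis genes were chosen with earlier results of these libraries known, so the gap between their medians carries no weight as a test. In heme breakdown, all 3 genes lay below 0 with a median of -0.67 and limma called 0: Blvra, the main adult biliverdin reductase, averaged 1128 ± 364 in Osmr-/- and 1926 ± 342 in WT (log2 fold change -0.82, adjusted p 0.130), the constitutive heme oxygenase gene Hmox2 gave -0.67 (adjusted p 0.259) and the inducible Hmox1 -0.56 (adjusted p 0.584). The authors' deposited table calls Blvra lower, at -0.72 with an adjusted p of 0.0499.

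Heme and porphyrin transport had 11 of 15 tested genes below 0 and a median of -0.52, and limma called 0. Slc25a39, a mitochondrial glutathione carrier, averaged 515 ± 114 in Osmr-/- and 1314 ± 467 in WT (SD, n = 5 and 6), with a log2 fold change of -1.30 (adjusted p 0.0763). Tspo2, an erythroid membrane protein gene, had 10.9 ± 22.3 in Osmr-/- and 141 ± 108 in WT, with -5.19 (adjusted p 0.0650). Tmem14c, which moves protoporphyrinogen into mitochondria, gave -0.70 (adjusted p 0.141). The authors' deposited table calls Slc25a39, Tmem14c and the glycine carrier gene Slc25a38 lower.

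Iron uptake and storage did not share a direction, with 7 of 16 tested genes below 0, 9 above and a median of 0.35. Slc25a28, the mitochondrial iron importer mitoferrin 2, gave -1.09 (adjusted p 0.176), the ferritin light chain gene Ftl1 -0.65 and the iron chaperone gene Pcbp1 0.53 (adjusted p 0.238 for both). In iron-sulfur assembly 12 of 15 lay below 0 with a median of -0.18. There Glrx5, which hands on the clusters that ferrochelatase needs, averaged 1070.1 ± 518 in Osmr-/- and 2872 ± 635 in WT (SD, n = 5 and 6), with a log2 fold change of -1.56 (adjusted p 0.0706), while Bola3 gave 0.89 (adjusted p 0.152) and Fdxr -2.30 (adjusted p 0.304). The authors' deposited table calls Slc25a28 and Glrx5 lower and no other gene of these 2 sets.

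For the substrates glycine and succinyl-CoA, 7 of 9 genes lay below 0 with a median of -0.40. Suclg1, a subunit of succinyl-CoA ligase, averaged 1291 ± 420 in Osmr-/- and 2704 ± 929 in WT, with a log2 fold change of -1.05 (adjusted p 0.121), and the serine hydroxymethyltransferase genes Shmt2 and Shmt1 gave -0.60 and -0.40 (adjusted p 0.358 and 0.525). Suclg1 is lower in the authors' deposited table. Heme-sensing genes had 5 of 8 below 0 and a median of -0.23, with Nr1d2 at 0.64, Hdac3 at -0.61 and the heme-regulated repressor gene Bach1 at 0.42. A set of heme proteins, enzymes that fit heme into cytochromes, and a partner of cytochrome b5 had 3 of 8 below 0 and a median of 0.18. In it the cytochrome c1 gene Cyc1 stood at -0.86, the cytochrome c gene Cycs at 0.88, and Cyb5r3, a flavin enzyme that reduces cytochrome b5 and carries no heme, at -1.35. Limma called 0 genes in each of the 7 sets outside the erythroid markers. At an unadjusted p under 0.05 there were 2 lower in heme breakdown, 5 lower and 2 higher in transport, 3 lower and 2 higher in iron handling, 1 lower and 1 higher in iron-sulfur assembly, 1 lower in substrate supply, 0 in sensing, and 2 lower and 2 higher among heme proteins and partners, beside 10.5% lower and 7.50% higher among all genes. With the number set as a covariate, limma called 2 lower in transport, 1 lower and 1 higher in iron-sulfur assembly and 1 lower in substrate supply, beside 1.53% lower and 0.996% higher among all genes.

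**Figure D4:**
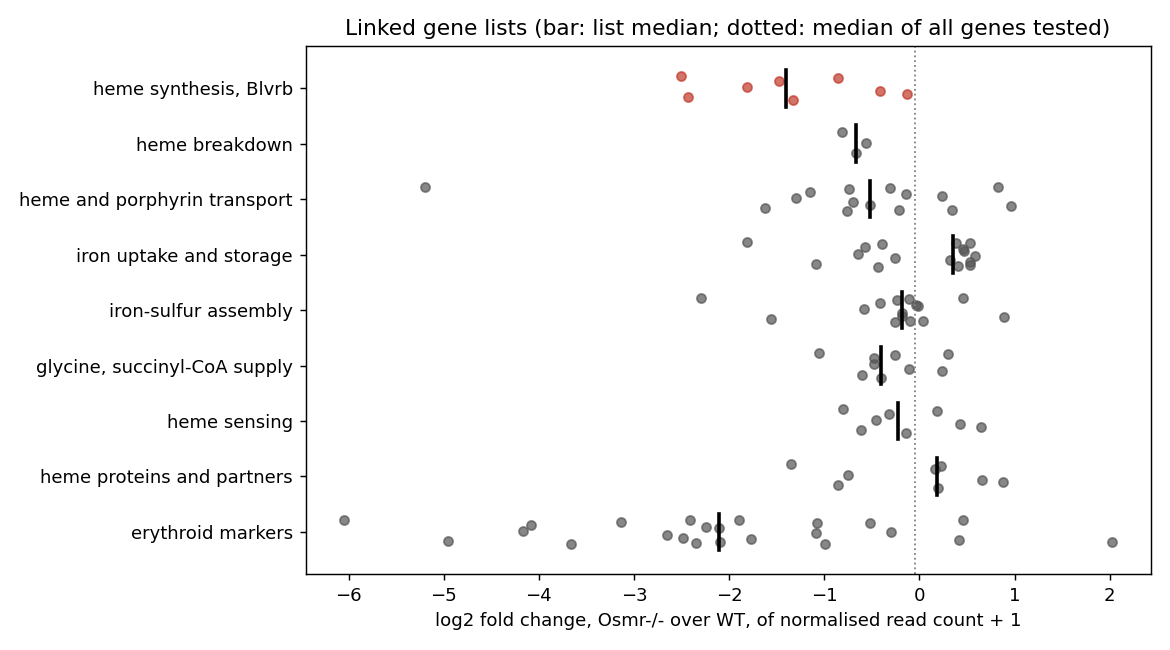
Log2 fold change of Osmr-/- over WT, of normalised read count + 1, for each tested gene (points) of the heme synthesis set with Blvrb (red) and of the linked sets (grey). Black bars give the median of a set and the dotted line the median of all genes tested, -0.05; the heme synthesis set lies at -1.40, the erythroid markers at -2.11 and the other sets between -0.67 and 0.35.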

How the data were processed

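Polyadenylated RNA of 1000 sorted cells per mouse was made into cDNA with a SMART-Seq v4 kit, per the labels' protocols. Per the submitters' processing notes, the tools were Trimmomatic 0.36.6, FastQC 0.72, HISAT2 2.1.0, HTSeq 0.9.1 and DESeq2 2.11.40.6, with the mm10 build. Annotation and strand setting were not given in the sources used here. Read counts were divided by size factors by the authors, so the deposited signal is a normalised count. The authors also deposited log2 values (regularised log and variance stabilised) and a table without column names. Tests on that table showed that it holds the authors' mean signal, log2 fold change, its standard error, Wald score, p-value and adjusted p-value, with the sign of WT minus Osmr-/- in all 615 genes past 0.05. Of 12 labelled samples, 11 have columns. Osmr-/- sample 4 was not analysed here.

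Deposited values were whole multiples of 1 step per library, so reads were recovered, each within 1.4e-09 of a whole number. The comparison used limma 3.58.1 (lmFit, eBayes with trend) in R 4.3.3 on log2(normalised count + 1) for the 13358 genes with at least 10 normalised counts in at least 5 libraries, with genotype alone, two-sided p and Benjamini-Hochberg adjustment over all genes. The fold changes of low genes depend on the pseudocount, with Rhd at -6.56 with pseudocount 0.5 and -3.92 with pseudocount 10. Fits to the reads can give smaller changes for low and variable genes. Alas1 was -2.43 here, -1.81 with edgeR and -1.80 with DESeq2. The model was tested on simulated counts. edgeR 4.0.16 and DESeq2 1.42.0 on recovered reads were alternatives, with those described in the closing section. Exon lengths, GC and overlaps came from GENCODE M21 on GRCm38, the mm10 assembly. The genes and lists were chosen with earlier results of these data known. Besides the 9 genes, the text names the 3 tested genes of lowest p in each linked list, any past the threshold, and the 3 genes most correlated with a gene described. Klf1, Slc4a1 and Hbb-bs are from the defining erythroid markers, and Slc25a38 and other genes were chosen after their values were seen. Flvcr1, Flvcr2, Epb42 and Ahsp were on the lists and were not analysed here. A library is 1 mouse, per the labels.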

Additional observations from a re-analysis of the deposited data

Results flagged for a closer look

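In each genotype, the highest or lowest library of each of the 9 genes was set against the others, which made 18 groups, and in 4 of them 1 library lay far from the rest. Chance flags about 1 group in 20 by this rule where values are not tied, which does not hold for Alas2, at 0 in 4 libraries of each genotype. Uros had 426 normalised counts in Osmr-/- library 2, against 64.4 to 133 in the other Osmr-/- libraries. Blvrb had 4404 normalised counts in WT library 3, against 1503 to 2196 in the other WT libraries. Alas2 had 1.95 normalised counts in Osmr-/- library 6, which is 2 reads, with 0 in the other Osmr-/- libraries. Alas2 had 17.9 normalised counts in WT library 4, with 0 to 5.72 in the other WT libraries.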

How the results depend on the processing

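Tried were other pseudocounts (0.5 and 10), other filters (none, or 50), TMM scaling, the authors' log2 values, edgeR, DESeq2, the number set as a covariate, each number set alone, a replicate block, 1 library left out in turn and, added after seeing the data, removal of a length and GC trend. Over these 25 alternatives Alas1, Alad, Uros, Urod, Cpox and Blvrb stayed below 0 and no gene of the 8 was called higher. Ppox turned to 0.21 in numbers 4 to 6, 0.054 without Osmr-/- library 3 (-0.26 to 0.054 with 1 library left out) and 0.20 without the length and GC trend, and Fech to 0.40 in numbers 4 to 6. That trend removal moved the median of all genes from -0.05 to 0.06 and left Alad at -2.04 and Blvrb at -1.38. The count of genes called lower, 0 of 8, was 2 with pseudocount 10, both of the authors' log2 scales and the covariate, 3 with DESeq2, and 0 to 2 when 1 library was left out (1 without Osmr-/- library 5, 2 without WT library 6). The same fits called 42 (pseudocount 10), 51 and 49 (regularised and variance stabilised values), 204 (covariate), 345 (DESeq2), 9 (without Osmr-/- library 5) and 92 (without WT library 6) of all genes lower, against 2. Alas1 ran from -3.01 to -1.17, the weakest on the authors' regularised scale. Of the 97 linked genes, 1 was called lower; this was 0 with pseudocount 0.5, no filter, a filter at 50, edgeR, either number set alone or the trend removed, 6 with pseudocount 10, 7 and 6 on the authors' regularised and variance stabilised values, 13 with DESeq2, 14 with the covariate and 0 to 6 with 1 library left out (6 without WT library 6). Linked genes called higher, 0, became 1 with pseudocount 10, either authors' scale, DESeq2 or the replicate block, 2 with the covariate and 0 to 1 with 1 library left out. Same-numbered libraries did not deviate together, with r of 0.0203 to 0.0986. With the replicate block, which drops WT library 4, 0 of the 8 were called, with Alad at -2.50 (limma adjusted p 0.0512) and Blvrb at -1.85 (0.0825); Osmr-/- library 3 alone correlated best with its own number. The cause of these changes was not tested. Alas2, with 0 reads in most libraries, was tested only in the fit without a filter, which did not call it.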

Other observations

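Marker lists of other marrow cells were read in the same model. Of 10 tested megakaryocyte markers 7 lay below 0. The median was -0.23 on the log2 scale, with summed counts of 6762 to 10299 in Osmr-/- and 5981 to 11674 in WT. Of 7 tested granulocyte markers 6 lay above 0, with a median of 1.29, and Osmr-/- library 3 stood apart, with a summed count of 29658 against 4926 to 6393 in the other Osmr-/- libraries and 3720 to 5598 in WT. Within numbers 4 to 6, without that library, the tested granulocyte markers went both ways. S100a8 gave 0.92, Prtn3 0.42 and Ngp 0.16, while Csf3r gave -0.19, Camp -0.23, S100a9 -1.07 and Mpo -1.56. These values were looked up after those of all libraries were seen. Mast cell and basophil, lymphoid, and stromal and endothelial markers had 3 tested genes each, with medians of -0.60, 0.39 and -0.33. The 10 markers of the stem cell gate had a median of 0.15. Limma called 0 genes of these lists in either direction. At an unadjusted p under 0.05, 2 megakaryocyte markers were lower, 1 granulocyte marker was higher, and lymphoid and gate markers had 1 in each direction, beside 10.5% lower and 7.50% higher among all genes. With the number set as a covariate limma called 1 gate marker higher, beside 0.996% of all genes, and the authors' deposited table has 1 of the gate markers higher, Ptprc, which encodes the leukocyte surface protein CD45, beside 1.67% of its genes.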
